A study of Mus musculus with 4 samples.

Results

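Gene promoters in mouse macrophages were in contact with DNA inside the introns of different genes, and these contacts were described host gene by host gene. A contact was counted where exactly 1 of 2 paired 5-kb bins held a protein-coding transcription start site (TSS), where the other bin lay at least 200 kb away, and where that other bin overlapped a protein-coding gene body but no protein-coding exon. Genes with a TSS in the promoter bin were not allowed as hosts. Of 237102 listed interactions, 15345 (6.47%) met this rule. They were 22.9% of the 66876 contacts at 200 kb or more with a TSS in 1 bin (95% Wilson interval 22.6 to 23.3%, counting error only). The rest of those 66876 reached an exon bin (23319), a bin outside protein-coding genes (27500) or an intron of the promoter's own gene (712).

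The cells were bone marrow-derived macrophages (BMDMs) of C57BL/6J mice, grown for 7 days in M-CSF. There were 2 samples given IL-4, a cytokine of alternative activation, at 20 ng/mL for 24 h, and 2 basal samples without IL-4. HiChIP joins DNA ends that lie close together in the nucleus and enriches them with an antibody, here against H3K4me3, a histone mark of active promoters. One list was called on the merged reads of the 4 samples, so the IL-4 and basal macrophages could not be set against each other, and replicate error and depth per sample are unknown. All 10 macrophage marker genes checked had at least 1 listed interaction at a promoter bin, from Itgam (1) and Cd68 (4) to Csf1r (14), Spi1 (36) and Mertk (42). So did 11 of 23 marker genes of other cell types, led by Lck (32), a T cell kinase, and Pecam1 (26), an endothelial adhesion molecule. Over all protein-coding genes the share was 63.2%.

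Introns can hold enhancers, and an enhancer may act on a promoter other than that of the gene it lies in, at times over long distances and past nearer genes. A well-studied case in mice and humans is the limb enhancer of Shh, which lies in an intron of Lmbr1. CTCF is a zinc finger protein that, with cohesin, holds chromatin loops, and loops form mostly between CTCF sites that point toward each other.

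The intron sequence at the contacts with the highest ratios of observed to expected counts is shown first. In each line the forward strand of mm10 is given 5′ to 3′, and the capitals mark matches to a fixed consensus. In the first 3 lines these are C/EBP matches (TTGCNNAA, here on the reverse strand) in Fggy, a CTCF match followed by a C/EBP match in Wwox, and a PU.1 match (GAGGAAGT, here on the reverse strand) in Lpp. These 3 windows were picked for the most motif matches. No difference in C/EBP or PU.1 matches was called between contacted and other intron bins (below).
Fggy intron contacted by Jun, chr4:95871277-95871424: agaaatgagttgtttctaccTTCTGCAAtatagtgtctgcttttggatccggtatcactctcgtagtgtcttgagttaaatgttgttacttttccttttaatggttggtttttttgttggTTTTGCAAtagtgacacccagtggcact
Wwox intron contacted by Maf, chr8:115095715-115095913: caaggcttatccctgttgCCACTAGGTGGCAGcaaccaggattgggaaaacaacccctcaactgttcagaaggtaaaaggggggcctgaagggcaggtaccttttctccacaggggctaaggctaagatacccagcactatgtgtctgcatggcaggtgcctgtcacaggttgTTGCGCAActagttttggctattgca
Lpp intron contacted by Bcl6, chr16:24620192-24620239: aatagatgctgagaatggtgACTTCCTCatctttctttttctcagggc
The next 4 lines show the CTCF match in the intron bin of the highest-ratio contact that had one, for the next 4 hosts in order of ratio. Every one of these 4 matches, and that in Wwox, is oriented toward the contacting promoter.
Fggy intron, second bin, contacted by Jun, chr4:95863060-95863113: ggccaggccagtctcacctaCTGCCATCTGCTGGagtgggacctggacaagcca
Specc1 intron contacted by Ttc19 and Zswim7, chr11:62047977-62048030: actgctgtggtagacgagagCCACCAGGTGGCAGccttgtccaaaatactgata
Zdhhc14 intron contacted by Tmem242, chr17:5748686-5748739: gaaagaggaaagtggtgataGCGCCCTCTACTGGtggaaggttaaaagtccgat
Rnls intron contacted by Atad1, chr19:33366804-33366857: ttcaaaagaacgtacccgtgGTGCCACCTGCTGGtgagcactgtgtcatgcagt

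The 15345 contacts joined 5005 promoter bins, which hold the TSS of 5433 genes, to 12152 intron bins in 4156 host genes. Every gene overlapped by the intron bin counted as its host, and bins of a gene body with neither a protein-coding exon nor a TSS are called intron-only bins. The contacts fell in 8209 clusters of neighbouring bin pairs. The distance had a median of 395 kb, with quartiles of 280 and 600 kb. The observed count of read pairs ranged from 5 to 266 with a median of 20, against a median expected count of 5.61. The ratio of observed to expected had a median of 3.52 and ranged from 2 to 38.6, and it was at least 10 in 241 contacts and at least 20 in 20. Just outside the distance limit, at 195 kb, 285 contacts of the same kind had a median ratio of 2.83, and just inside it, at 200 kb, 262 contacts had 2.97. A further 10380 contacts with introns of other genes lay under 200 kb and are not described here.

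Between promoter and intron lay a median of 4 other TSS bins (quartiles 2 and 8). None lay between them in 998 contacts (6.50%). The contacted promoter bin was the TSS bin nearest to the intron bin in 169 (1.10%), and the nearest promoter bin of the host itself was at a median of 30.0 kb. The rule requires at least 200 kb and a partner inside another gene, so these low shares follow largely from the rule. No such shares are given for the other classes of long-range contact.

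Maf and Wwox formed the pair with the most contacts when neighbouring bin pairs were counted separately. These contacts fell in 2 clusters, and with 1 interaction kept per cluster the order of the leading hosts changed, with 1 contact in Wwox and in Lpp but 15 in Adk and 6 each in Lrmda and Akap6. Maf encodes a basic leucine zipper factor of macrophages, and Wwox an oxidoreductase whose gene spans a common fragile site. The Maf promoter bin contacted 110 of the 172 intron-only bins of Wwox, 360 to 970 kb away, and no other promoter contacted Wwox at 200 kb or more. The ratio was 2.49 to 31.8 with a median of 7.33. The strongest bin, chr8:115095001-115100000, had 243 observed and 7.64 expected counts (ratio 31.8, 95% Poisson interval 27.9 to 36.0, counting error only). It holds the CTCF match printed above. No TSS bin lay between Maf and these Wwox bins, and they made up 53.9% of the 204 interactions of Maf.

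Bcl6, a transcriptional repressor, contacted Lpp, a LIM-domain protein of focal adhesions, almost throughout. Of the 104 intron-only bins of Lpp, 101 were paired with the promoter bin that Bcl6 shares with the short gene Gm37419, 410 to 980 kb away. Ratios were 2.84 to 28.9 with a median of 8.92, and the highest had 175 observed and 6.06 expected counts. In contrast to Wwox, 1 to 3 TSS bins lay between, and the Lpp promoter had 85 interactions of its own, against 17 for Wwox. Of the 101 contacted Lpp bins, 30 were also listed with the Lpp promoter.

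Fggy, a carbohydrate kinase gene, had 101 contacts, of which all but 1 came from 2 promoters on the same side. Jun, which encodes a subunit of AP-1, contacted 57 of its 58 intron-only bins at 510 to 865 kb, with ratios of 3.82 to 38.6 and a median of 9.12. Mysm1, a histone H2A deubiquitinase gene 75 kb beyond Jun, contacted 43 bins with ratios of 2.80 to 24.2 and a median of 5.13. All 43 Mysm1 bins were also Jun bins (100% of the Mysm1 bins and 75.4% of the Jun bins). Since Jun contacted 57 of the 58 bins, such an overlap follows almost wholly from its coverage. Their strongest bins differed. The Jun maximum (chr4:95870001-95875000, 102 observed and 2.64 expected counts, ratio 38.6) had a ratio of 8.36 with Mysm1, and the Mysm1 maximum (chr4:95910001-95915000, 71 observed counts, ratio 24.2) had 13.2 with Jun. The ratio of 38.6 was the highest of all 15345 contacts, with a 95% Poisson interval of 31.5 to 46.9.

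Rnls, which encodes the flavoprotein renalase, had 38 of its 46 intron-only bins in contact with Atad1, a mitochondrial ATPase gene. The ratio was 2.50 to 25.3 with a median of 6.41. The strongest Atad1 bin lay at 650 kb, with 94 observed and 3.72 expected counts (ratio 25.3). The Rnls promoter had 2 interactions, and no contacted intron bin was among their partners.

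Nrp2, a receptor for semaphorins, contacted 93 of the 179 intron-only bins of the polarity gene Pard3b, at 205 to 995 kb. Ratios were lower than at Wwox or Lpp, with a median of 4.44 and a maximum of 8.92. The Pard3b promoter had 0 listed interactions. Zfp503, a zinc finger repressor gene, contacted 70 of the 200 intron-only bins of Lrmda at 200 to 920 kb with a median ratio of 4.18 and a maximum of 12.1. Zfp36l1, which encodes an mRNA decay factor, contacted 59 intron bins of the recombination gene Rad51b at 315 to 795 kb with a median of 5.48 and a maximum of 16.0. In each of these pairs the contacts came in runs of neighbouring bins, and the longest unbroken runs were 50 kb in Pard3b, 60 kb in Lrmda and 65 kb in Rad51b, compared with 260 kb in Wwox.

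**Figure D1:**
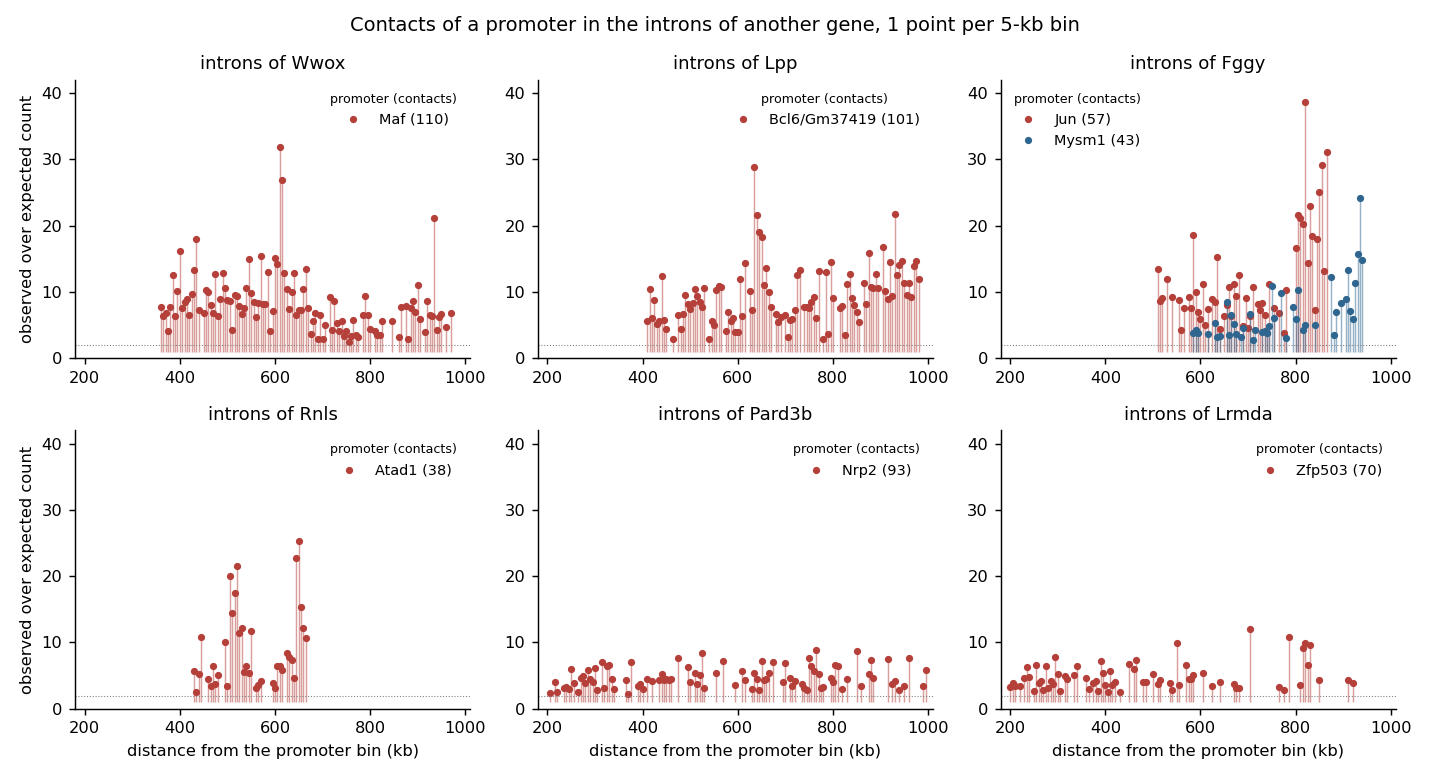
Observed over expected count (y axis) of each contacted intron bin by its distance from the promoter bin (x axis, kb) in 6 host genes, with the promoter named in each panel and a dotted line at a ratio of 2. Maf, Bcl6, Jun and Atad1 reach 31.8, 28.9, 38.6 and 25.3, whereas Nrp2 in Pard3b stays at or under 8.92 and Zfp503 in Lrmda at or under 12.1.

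Other leading hosts held several promoters. Adk, the adenosine kinase gene, had 73 contacts from 10 promoter bins, with 26 each from Samd8 and from 1 bin of the histone acetyltransferase gene Kat6b. Akap6, a kinase anchoring protein gene known from muscle, had 65 contacts from 7 promoter bins. Its strongest bin, chr12:52830001-52835000, was the same for Arhgap5, a GTPase-activating protein gene (90 observed counts, ratio 10.3, 330 kb), and for Dtd2, a tRNA deacylase gene (42 observed counts, ratio 13.1, 825 kb). Skap1, a T cell adaptor gene, had 54 contacts, most of them from bins of the Hoxb cluster of homeobox genes, with 16 from Hoxb7, 13 from Hoxb8, 11 from Hoxb4 and 10 from Hoxb6. The Skap1 promoter itself had 0 interactions. Arrdc3, an arrestin-domain gene, contacted Adgrv1, an adhesion receptor gene, from 2 neighbouring bins with 24 and 21 contacts.

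The highest observed count, 266 against 13.5 expected (ratio 19.7), joined the promoter bin of Ttc19 and Zswim7 to a Specc1 intron 235 kb away. Irgm1, an interferon-inducible GTPase gene, had a single contact 210 kb away in a bin of Ifi47 and Olfr56, with 215 observed and 12 expected counts (ratio 17.9). The promoters of Bin3 and of Egr3, an immediate-early zinc finger factor, met in the same Pebp4 bin, chr14:69860001-69865000, with 204 observed counts (ratio 14.5) for Bin3 and 181 (ratio 11.9) for Egr3. Cebpd, a C/EBP family factor gene, contacted the DNA repair gene Spidr over 200 to 250 kb with up to 165 observed counts (ratio 15.3).

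In Mtmr7, a myotubularin-related phosphatase gene, 6 of 8 intron-only bins held 11 contacts from 6 promoter bins. Slc7a2, which encodes a cationic amino acid transporter, gave 7 of them. Adam39, Fgl1, Mtus1 and Pdgfrl gave 1 each. The bin chr8:40610001-40615000, where the main Slc7a2 promoter bin had 106 observed counts (ratio 15.7), was also paired with Adam39 (20 counts, ratio 8.35), with Mtus1 (14 counts, ratio 3.27) and with a further Slc7a2 start (9 counts, ratio 3.69). A second bin, chr8:40575001-40580000, was paired with Slc7a2 (111 counts, ratio 11.1), Pdgfrl (53 counts, ratio 9.10) and Fgl1 (10 counts, ratio 5.48). At both bins Slc7a2 had the highest count and ratio.

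Hosting was common but uneven. Of 9242 genes with an intron-only bin, 4156 hosted a contact, a background of 45.0%. The share was 60.0% among the 2511 genes with 10 or more such bins and 48.7% among the 156 with 100 or more. A single contact was found in 1583 hosts (38.1%), and 2059 (49.5%) had contacts of 1 promoter bin only. At the other end, 80 hosts had at least 20 contacts. In 40 of these 80, 1 promoter bin gave at least 50% of the contacts, and in 13 it gave at least 90%. The 10 leading hosts held 932 contacts (6.07%).

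Hosts were longer than genes without a contact, with a median of 66.1 against 41.2 kb and of 6 against 3 intron-only bins. Per 100 intron-only bins, in genes with 10 or more, the order was led by shorter genes, namely Tacc1 (221), Fer1l6 (217), the kinase gene Tesk2 (200), Rapgef6 (192) and the phospholipase gene Plcg2 (183). These genes had only 10 to 14 intron-only bins, close to the limit of 10, and 20 to 31 contacts, so the measure itself favours them. In Fer1l6 all 12 intron-only bins were contacted. Most distinct promoter bins reached Pebp4 (13), Tacc1 (12) and Fam20c, a secretory pathway kinase gene (12), after the 2 long models Gm20388 (39) and Fgfr2 (15).

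The gene models of Gm20388 and Fgfr2 need care. Gm20388 led all hosts with 171 contacts in 90 clusters, but its model runs over 4435 kb and spans TSS of 72 other protein-coding genes. That of Fgfr2, with 63 contacts, runs over 2961 kb and spans 30. For Adk, Akap6, Fggy, Lpp, Lrmda, Pard3b, Rnls and Wwox this number was 0. In all, 22 hosts spanned 5 or more other genes, and 184 contacts (1.20%) had no other host.

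**Figure D2:**
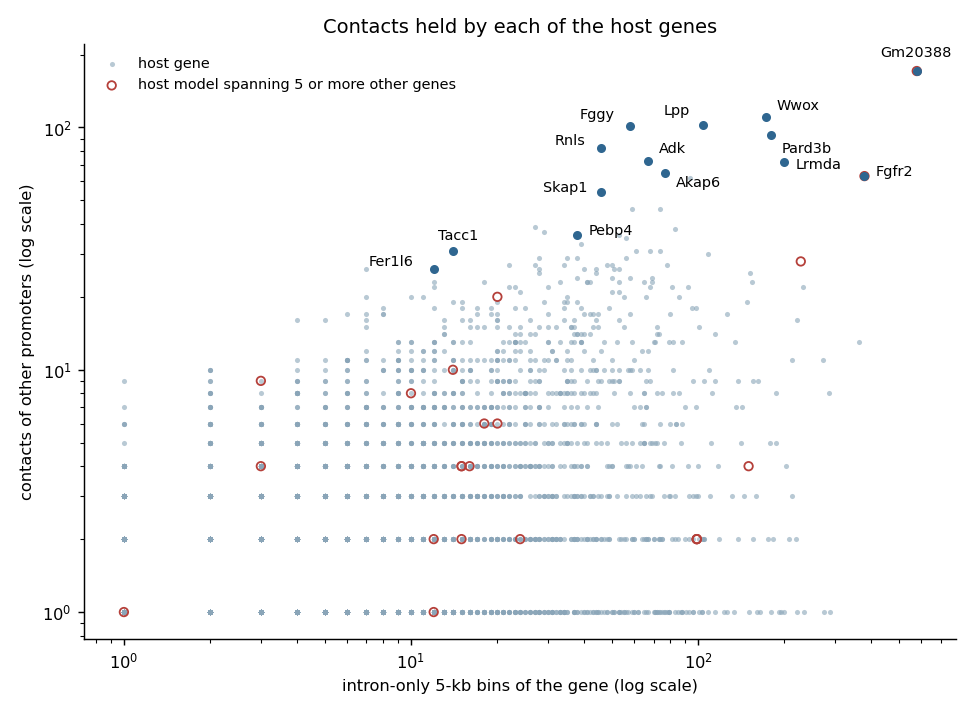
Contacts of other promoters (y axis, log scale) against the number of intron-only 5-kb bins (x axis, log scale) for each of the 4156 host genes, with open red circles for models that span 5 or more other genes and filled blue points for named hosts. Contacts spread widely at any number of bins, and Fggy with 58 bins has 101 contacts whereas Lrmda with 200 bins has 72.

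Some intron bins were paired with more than 1 promoter bin. Of the 12152 contacted bins, 2380 (19.6%) were paired with 2 or more promoter bins. Different promoter bins can hold starts of the same gene, as with the Mgat1 bins paired with a Trim7 bin on chromosome 11. The most, 10, were at chr5:138760001-138765000 in Fam20c, from 235 to 975 kb away and with ratios of 2.24 to 6.23, among them those of Pdgfa, Cops6 and Lamtor4. A Mob3a bin on chromosome 10 had 9, among them Tcf3, Cirbp and Zbtb7a, at ratios of 2.14 to 4.84. Of all 109924 intron-only bins, 11.1% were contacted. A TSS of a non-coding transcript lay in 5.63% of the contacted bins, compared with 4.32% of all intron-only bins.

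Whether the host's own promoter was in contact varied. No interaction was listed at the host promoter for 785 hosts (18.9%), such as Pard3b and Skap1, compared with 2425 of 5086 genes without a contact (47.7%). Of the 12152 contacted bins, 1838 (15.1%) were listed with their host's promoter too, or 20.5% of the 8967 for which such a pair was within 1 Mb of a listed host promoter. A promoter without H3K4me3 has few ways to enter the list, so these shares describe marking and contact together.

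On the promoter side, 5433 of 20720 genes (26.2%) contacted an intron of another gene at 200 kb or more, and 13093 (63.2%) had any listed interaction. The 10 genes with most such contacts were Maf (110), Bcl6 and Gm37419 (101, same bin), Nrp2 (96), Zfp503 (71), Zfp36l1 (59), Jun (57), Qk (55), Arhgap5 (49) and Arrdc3 (47). Of the 5005 promoter bins, 2920 (58.3%) reached a single host and 2328 had 1 contact. For Zfp503 such contacts were 73.2% of all its interactions and for Nrp2 67.6%, but for Jun 30.2%.

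Among genes of IL-4 signalling and response, 14 of 34 (41.2%, interval 26.4 to 57.8%) had such a contact, beside 26.2% of all genes. The 26.2% also counts genes without any listed interaction. Of the IL-4 list, 29 of 34 had an interaction at a promoter bin, compared with 63.2% of all genes. The shares with a contact therefore do not rest on like sets of genes, and their difference was not tested. Slc7a2 led with 8, followed by Arg1, the arginase of alternatively activated macrophages, with 4, and Stat6, the transcription factor downstream of the IL-4 receptor, with 3. The 4 Arg1 contacts lay in Akap7, a kinase anchoring protein gene, at 285 to 320 kb, with 10 to 21 observed counts and ratios of 3.39 to 6.30. The 3 Stat6 contacts lay in Baz2a, Ptges3 and R3hdm2, with 22 to 24 counts and ratios of 2.10 to 3.21. Il4ra, Pparg, Mrc1 and Chil3 were among the 20 listed at 0. The median over the list was 0, as in the other lists of promoters.

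The immediate-early and AP-1 list had a contact in 10 of 25 genes (40.0%, interval 23.4 to 59.3%), led by Bcl6 (101), Jun (57) and Mafk (7). Fos, Junb, Jund, Atf3 and Egr1 were listed at 0. Macrophage identity genes had one in 5 of 20 (25%), led by Maf (110), Mertk, an efferocytosis receptor gene, with 5 in Acoxl and Mall, and Cebpb, a C/EBP family factor gene, with 3 in the phosphatase gene Ptpn1. Spi1, Csf1r and Adgre1 were at 0. Of the inflammatory genes 3 of 25 (12%) had one, with 3 for Relb, 2 for Ccl2 and 1 for Il1b. Housekeeping genes had one in 7 of 18 (38.9%), among them Tbp (5) and Eef2 (2), and genes of other lineages in 4 of 25 (16.0%), led by Apoa1 (3). A listed interaction at a promoter bin was present in 22 of 25 immediate-early and AP-1 genes and 19 of 20 macrophage identity genes. It was present in 22 of 25 inflammatory, 18 of 18 housekeeping and 13 of 25 other-lineage genes. Over all 20720 genes, 5433 (26.2%) had a contact in another intron and 13093 (63.2%) had any listed interaction. Differences between these lists and all genes were not tested.

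Of genes named elsewhere as hosts of remote elements, 11 of 14 with an intron-only bin (78.6%, interval 52.4 to 92.4%) held a contact, led by Wwox (110), Lpp (102) and Fmn1 (31). This list holds genes such as Wwox, Lpp and Mtmr7 that were known from these data to host contacts, so its share is no independent evidence. Its median was 16.5 intron-only bins. Leukocyte signalling and transcription genes held a contact in 22 of 30 (73.3%, interval 55.6 to 85.8%), led by Skap1 (54), Plcg2 (22) and Prkcb (15), with a median of 20 intron-only bins. Among all genes with 10 or more such bins the share was 60.0%, which lies inside the intervals of both lists. Of the leukocyte genes, 28 of 30 had an interaction at their own promoter. Very long neuronal, adhesion and fragile-site genes, with a median of 226 intron-only bins, held a contact in 10 of 30 (33.3%, interval 19.2 to 51.2%), among them Fggy (101) and Dlg2 (13). For all genes with 100 or more intron-only bins the share was 48.7%, which lies inside this interval too. Fggy, with 58 intron-only bins, lies outside that class, and this list too was chosen with earlier results of these data known. Of the 30 very long genes, 8 had an interaction at their own promoter. Differences between the host lists were not tested.

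**Figure D3:**
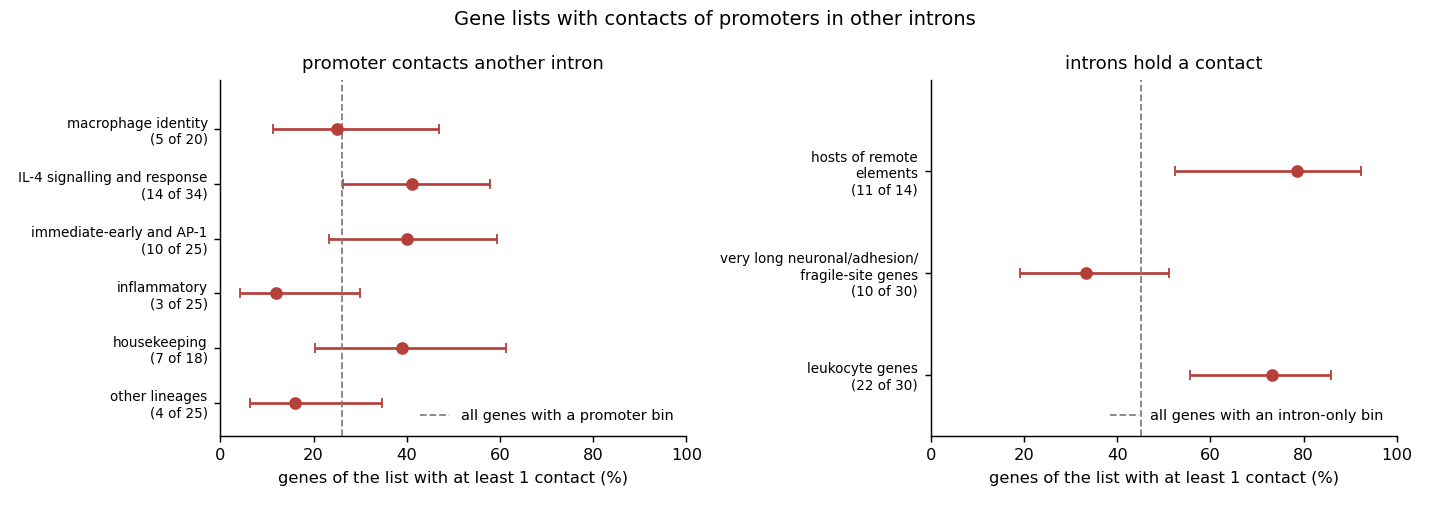
Share of the genes of each list with at least 1 contact (x axis, percent, 95% Wilson intervals), for promoters that contact an intron of another gene (left) and for genes whose introns hold a contact (right), with dashed lines at the background of 26.2% and 45.0%. Of the promoter lists, IL-4 signalling and response (41.2%) is highest and inflammatory genes (12%) lowest, and of the host lists the very long genes (33.3%) lie lowest. The background of 26.2% also counts genes without any listed interaction. That of 45.0% covers genes with any number of intron-only bins. It was 60.0% for genes with 10 or more and 48.7% for those with 100 or more, which are not drawn.

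The next question was whether contacted bins fall in introns of other genes more often than the position of the promoter provides. For 61108 contacts at 200 kb or more, the contacted bin was set against the bin equally far from the promoter in the opposite direction, both without a TSS. Introns of other genes took 23.0% of contacted and 25% of mirrored bins. Averaged over chromosomes the difference was −1.98 percentage points ± 2.79 (SD, n = 19 autosomes), lower on 17 of 19 (two-sided sign-flip permutation p = 0.00477). Exon bins went the other way, with 34.4% of contacted and 25.9% of mirrored bins, and bins outside genes were 41.5% and 48.6%. The class shares sum to the whole and so do not move independently. The gap was larger for bins outside genes than for introns of other genes. When 1 interaction was kept per cluster, the difference for introns of other genes was −0.142 points (permutation p = 0.814).

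The ratio of observed to expected was compared within 50-kb strata of distance, with chromosomes as units. On the log2 scale, contacts with introns of other genes averaged 1.90 and contacts outside genes 1.94, a difference of −0.044 ± 0.070 (SD, n = 19 autosomes), lower on 13 of 19 (sign-flip permutation adjusted p = 0.0160, over 2 tests). Against contacts with introns of the promoter's own gene the means were 1.78 and 1.90, a difference of −0.12 ± 0.18, also lower on 13 of 19 (permutation adjusted p = 0.0160). At 300 kb or more the differences were −0.025 and −0.014, with permutation adjusted p of 0.346 and 0.811.

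Contacted bins sat at a mean of 43.0% of the host's length from its 5′ end, compared with 44.2% for the other intron-only bins of the same hosts in reach of the same promoters (−1.19 points ± 2.67, SD, n = 19 autosomes, sign-flip permutation p = 0.0686). The promoter lay beyond the 5′ end of the host in 7733 pairs of contact and host and beyond the 3′ end in 7744, a difference per chromosome of 0.281 points ± 7.91 (permutation p = 0.878). In 325 pairs it lay inside the host body.

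The DNA of contacted bins was compared with that of other intron-only bins of the same host, in 3181 hosts with 10783 contacted and 42835 other bins. Matches to a CTCF consensus were more frequent in contacted bins, at 0.0174 against 0.0105 per bin (+0.00687 ± 0.00679, SD, n = 19 autosomes, higher on 15 of 19, sign-flip permutation adjusted p = 0.00123 over 8 measures). By bins, 1.72% of contacted and 0.974% of all intron-only bins held a match, compared with 1.28% of all autosomal bins. AP-1 matches (TGANTCA), which fit the factor encoded by Jun and Fos family genes, were also more frequent, at 1.61 against 1.56 per bin (+0.0509 ± 0.0505, higher on 15 of 19, permutation adjusted p = 4.80e-04). At least 1 AP-1 match was in 79.4% of contacted and 79.3% of all intron-only bins. With 1 interaction kept per cluster neither difference passed the threshold (CTCF +0.00390, permutation adjusted p = 0.220; AP-1 +0.0333, permutation adjusted p = 0.407).

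The frequency of restriction sites and of repeats moved with these counts. GATC, the site of the enzyme MboI used in the assay, was more frequent in contacted bins on all 19 autosomes (12.6 against 11.7 per bin, +0.906 ± 0.201, permutation adjusted p = 8.00e-05), and the share of repeat-masked bases was lower on all 19 (27.5 against 29.9%, −2.34 points ± 0.723, permutation p = 1e-05, the smallest possible). Within 5 strata of GATC count the CTCF difference was +0.00668 (permutation adjusted p = 0.0104), and within 5 strata of repeat share +0.00895 (adjusted p = 5.20e-04). The AP-1 difference was +0.0618 (permutation adjusted p = 4.20e-04) within strata of GATC count but +0.0171 (adjusted p = 0.514) within strata of repeat share.

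No difference was called for the other measures. GC content was 43.4% in both sets (−0.0315 points ± 0.201, permutation adjusted p = 0.680). PU.1 (0.321 against 0.326 matches per bin), C/EBP (2.27 against 2.29), STAT6 (1.46 in both) and EGR (GCGTGGGCG, 0.00283 against 0.00309) had permutation adjusted p of 0.680 to 0.863. PU.1 matches were in 26.7% of contacted and 26.6% of all intron-only bins, C/EBP matches in 87.6% and 90.2%, STAT6 matches in 75.8% and 78.7%, and EGR matches in 0.280% and 0.196%. Matches were counted on both strands, palindromic matches once, and different motifs may overlap.

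**Figure D4:**
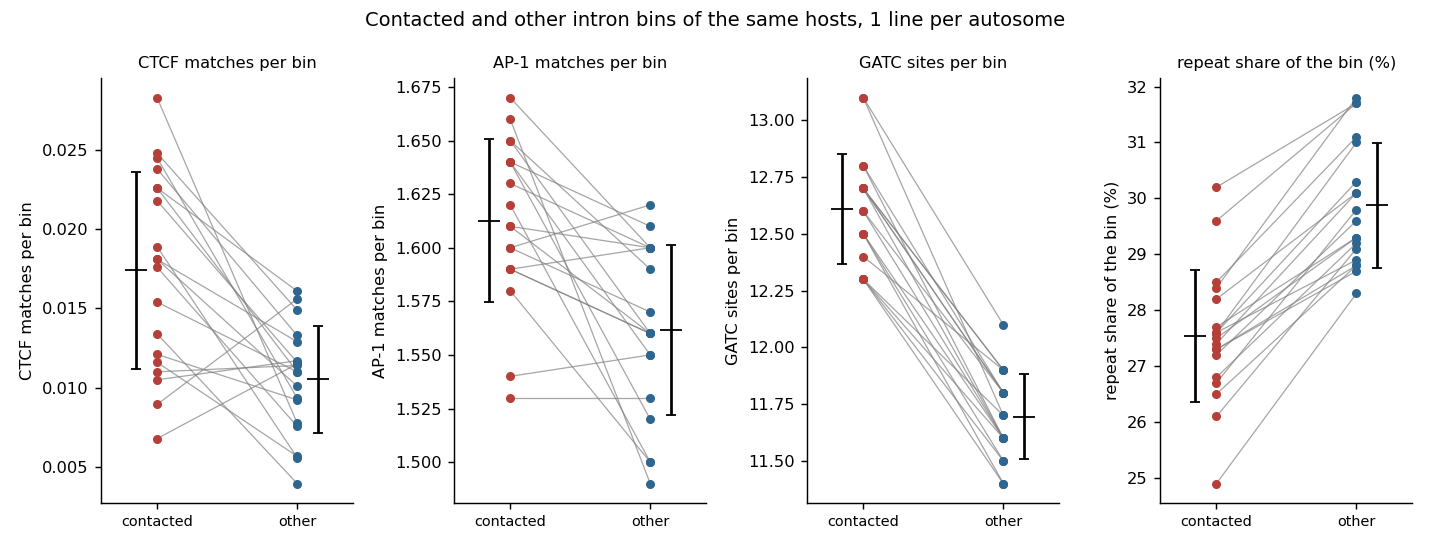
Mean number of CTCF, AP-1 and GATC matches per 5-kb bin and mean share of repeat-masked bases (y axes) in contacted (left, red) and other (right, blue) intron-only bins of the same hosts, with 1 line per autosome and bars for the mean ± SD over 19 autosomes. GATC is higher and repeat share lower in contacted bins on all 19 lines, and CTCF and AP-1 are higher on 15 of 19.

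CTCF matches in the contacted introns pointed mostly at the promoter. The bin held matches of a single orientation in 295 contacts (209 bins), and in 209 of these contacts (70.8%, 95% Wilson interval 65.4 to 75.7%) the match was oriented toward the promoter, as in the Wwox, Fggy, Specc1, Zdhhc14 and Rnls bins printed above. By chromosome the mean was 69.6% toward and 30.4% away, a difference of 39.2 points ± 32.0 (SD, n = 19 autosomes, toward in excess on 17 of 19, sign-flip permutation p = 1.60e-04). With 1 interaction kept per cluster the difference was 23.4 points ± 56.7 (permutation p = 0.0915). The same share was 67.6% (64.5 to 70.5%) of 932 contacts with bins outside genes and 62.8% (59.3 to 66.3%) of 716 with exon bins, and the difference between these classes was not tested. Contacts that share an intron bin or a promoter are not independent, and the intervals cover counting error only.

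**Figure D5:**
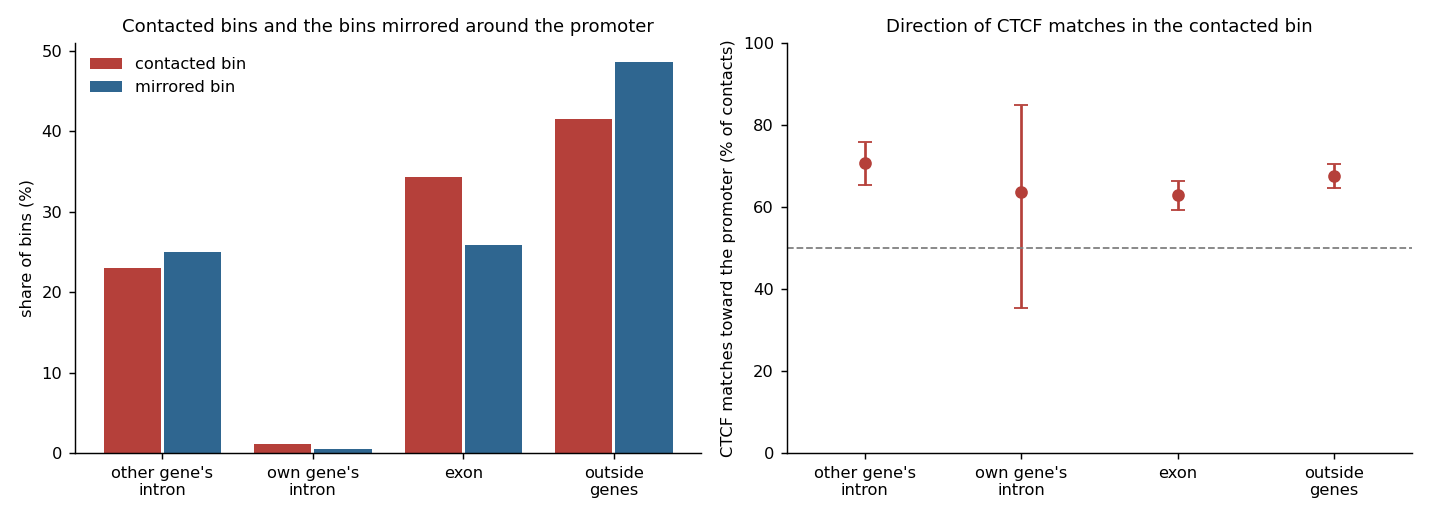
Left, share of contacted bins (red) and of the bins mirrored around the same promoter (blue) in 4 annotation classes (y axis, percent of 61108 bins); right, percent of contacts whose CTCF match in the contacted bin points toward the promoter, with 95% Wilson intervals and a dashed line at 50%. Introns of other genes take 23.0% of contacted and 25% of mirrored bins, and their CTCF matches point toward the promoter in 70.8%.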

How the data were processed

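H3K4me3 HiChIP was run on bone marrow-derived macrophages, 2 samples with IL-4 and 2 basal samples, grouped by their titles. Bowtie2, bedtools and mm10 are named in the submitters' processing notes. As the study's methods state, the authors called interactions with MAPS in bins of 5000 bp on the merged reads, with an H3K4me3 peak file. MAPS, as a published tool, models the count from terms that include distance, restriction sites, GC content and mappability. Each deposited bin pair carries its observed count and the count that model expects, a signal value of the authors, and their ratio was formed here. The false discovery rates are p-values adjusted by the authors. The deposited −log10 p of clusters was not used. To keep 1 interaction per cluster, only bin pairs that the authors marked as a cluster's summit were kept. A cluster whose summit was not itself a contact of the kind described gave none, so 8209 clusters left 5227 contacts. A bin pair that is absent was not called and may still be in contact.

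Genes came from the basic set of GENCODE M21, and sequence and repeat masking from GRCm38, whose chromosome lengths hold all bins. Distances are between bin starts, and positions are mm10 counted from 1. Bins with under 4500 known bases were left out of the mirrored and sequence comparisons. Differences per chromosome were tested over the 19 autosomes by a sign-flip permutation test, two-sided (100000 resamples, smallest p 1e-05), with Benjamini-Hochberg adjustment over 2 ratio tests and 8 sequence measures. Such p-values rest on the spread of chromosomes and say nothing of cultures. The scripts were tested on simulated data. The 10 hosts and 10 promoters with most contacts, 5 hosts each by promoter bins and by contacts per 100 bins, Mtmr7, the 5 contacts highest in count and in ratio, and the 3 leading genes of each list were named by rule; all other genes were picked with their values in view. Sequences are windows of up to 200 bases with the most motif matches; the CTCF windows, the CTCF direction and the repeat share were added after the data were seen. Some items that the rule selects are not reported here. The contacts and gene lists were chosen with earlier results of these data known. Tools were Python 3.11.15, numpy 2.4.6, scipy 1.17.1, pandas 2.3.3 and matplotlib 3.10.9.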

Additional observations from a re-analysis of the deposited data

How the results depend on the processing

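No paired analysis was possible because the list is merged over all samples and holds no value per sample, and leaving out replicates was impossible for the same reason. The number of contacts was 5246 and of hosts 2233 at a false discovery rate under 1e-06, and 5642 and 2455 at ratios of at least 4. With 1 interaction kept per cluster, its summit, 5227 contacts were left from 8209 clusters, as clusters whose summit was no such contact dropped out. The leading pairs shrank, with 1 contact left in Wwox, 1 in Lpp, 2 in Fggy and 5 each in Pard3b and Rnls. Adk (15), Lrmda (6) and Akap6 (6) held more, and contacts in other hosts were not recounted. The share of long-range contacts was 24.3% with 1 per cluster, 21.1% with exons of every transcript of any gene, 22.5% at a false discovery rate under 1e-06, 22.6% for intron bins wholly inside the host and 23.5% at 300 kb or more. The difference from mirrored bins missed the threshold with 1 per cluster (−0.142 points), at 300 kb or more (−1.29) and at ratios of at least 4 (−1.89). The ratio difference from bins outside genes missed it at a false discovery rate under 1e-06 (−0.0353) and at 300 kb or more (−0.0248), and that from own introns did likewise (−0.0766 and −0.0140). The AP-1 difference missed it with 1 per cluster (0.0333), at a false discovery rate under 1e-06 (0.0522), at ratios of at least 4 (0.0149) and within strata of repeat share (0.0171), and the CTCF difference with 1 per cluster (0.00390). The excess of CTCF matches toward the promoter was 23.4 points with 1 per cluster. Without the gene models that span 5 or more other genes, an alternative chosen after seeing the data like the strata of GATC count and repeat share, the position difference passed the threshold (−1.40 points, permutation p = 0.0318). No result changed direction beyond the threshold, and the causes were not tested. A count of 5 to 27 per contact, the range up to the third quartile, limits the precision of single ratios.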
